A study of Mus musculus with 2 samples.

Results

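The integrin and laminin subunit genes were compared between teratomas formed by E14 cells and by E14-Sox2TA/WT cells. Genes were taken by symbol, as every integrin α chain, integrin β chain and laminin α, β or γ chain in the gene table, which gave 37 of the 45777 genes listed. These were 18 integrin α chains, 8 integrin β chains, 5 laminin α chains, 3 laminin β chains and 3 laminin γ chains. E14 is a mouse embryonic stem cell (ESC) line, wild type for Sox2 in this design. E14-Sox2TA/WT cells are derived from it by CRISPR editing and single-cell cloning, and carry on 1 Sox2 allele the change T258A, which replaces threonine 258 by alanine. Both kinds of cell were inoculated under the skin of BALB/c-nu mice, with 3 mice per group, and the teratomas were harvested on day 14. These athymic hosts lack most T cells but keep other leukocytes, and host and graft are both mouse, so host RNA and graft RNA cannot be told apart. The tissue is labelled teratoma although the labelled extraction protocol names an ESC line as the source of RNA, and whether a library was made from a single tumour or from several is not stated in the sources used here.

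Integrins are heterodimers of an α and a β chain that anchor cells to the extracellular matrix or to other cells, and the α chain largely sets the ligand. Laminins are trimers of an α, a β and a γ chain that polymerise into the sheet on which basement membranes are built, together with type IV collagen, nidogens and perlecan. In teratomas, these sheets lie under epithelia and around vessels, muscle fibres and neural tissue, while β2 and β7 integrins are carried by leukocytes.

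RNA-seq gave 1 library per group. The E14 library held 50529171 reads on genes and the E14-Sox2TA/WT library, called TA/WT library from here on, held 49030281. Levels are given as TPM, a transcript's share of the library on a fixed scale and a measure per transcript length that can be compared between genes. A fold is the ratio of TPM between the libraries, and its interval is a 95% Clopper-Pearson interval of the read counts. It covers counting error alone. With 1 library per group, no difference has a replicate check and none was tested. Sox2 itself had 246 and 130 TPM, where the first of a pair of values is from the E14 library here and throughout. Marker lists of 10 cell types were read in both libraries. All 8 neural markers were lower in the TA/WT library (median of the log2 ratio of TPM + 1, -2.20). All 6 markers of pluripotent cells (3.78) and all 8 of visceral and parietal endoderm (3.84) were higher. The levels of cell type markers thus differed widely between the libraries, and in bulk samples fewer cells of a type and less RNA per cell cannot be told apart.

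Differences past the rule of the methods lay among the basement membrane laminins and the integrins outside the leukocyte, platelet and epithelial groups. The level of TPM that the rule asks for was reached by 0 of 7 leukocyte, 0 of 2 platelet and 2 of 7 epithelial subunits. The filter thus kept most of these from being counted, and the rule does not rank the groups. A gene was counted as different when its TPM ratio was above 2 and its TPM reached 10 in at least 1 library, a level that 14 of the 37 subunits reached. Lama1, Lamb1, Itga5 and Itga8 were higher in the TA/WT library by this rule, which makes 4 of 14, and Itgb8 was lower, which makes 1 of 14. Among all 11578 genes at this level, 10.8% were higher and 18.7% were lower by the same rule. With a minimum TPM of 1 instead of 10, 9 of 34 subunits were higher and 2 were lower, against 19.3% and 18.9% of 18558 genes. The 5 that this adds to the higher side were Itgam, Itgb2, Itgb3, Itgb7 and Lama2, and the one it adds to the lower side was Itga7. Of all 37 subunits, 28 had a higher and 9 a lower TPM in the TA/WT library, beside 15701 higher and 13444 lower among all genes. Among those with at least 1 TPM in a library, 73.5% of the subunits and 47.5% of all genes were higher. Later counts of higher and lower genes are to be read beside this share of all genes. On the log2 scale of TPM + 1, the median was 0.32 over the 34 subunits with a TPM of at least 1, and -0.06 over all genes with that level. With FPKM the median of all genes was 0.11. Relative to the median of all genes, that of these subunits was 0.38, and relative to genes of the same transcript length it was 0.72. Their transcripts had a median length of 5956 nt against 2932 nt for all genes at that level, and the 2615 genes longer than 6000 nt had a median of -0.45 relative to all genes.

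Other ways of counting are given with the share of all genes that each called. At a fold of 1.5, 7 of 14 subunits were higher and 2 of 14 lower, against 18.2% and 32.3% of genes. At a fold of 3, of the same 14, Lama1 alone was higher and Itgb8 alone lower, against 5.73% and 8.77%. With no minimum TPM, 11 of 37 subunits were higher and 2 of 37 lower, against 31.4% and 20.6%, so the higher share was near that of all genes. With FPKM, which gave 13.7% and 14.3% of genes, and with counts scaled by library total, which gave 13.6% and 14.1%, Lama5 joined the higher subunits. Counts scaled by TMM (11.6% and 17.0%) or by median of ratios (11.7% and 16.9%) called the same 5 subunits as TPM. So did the demand that the whole counting interval lie past 2 (8.70% and 16.5%). Relative to genes of the same length (11.1% and 15.6%), Itgav, Lama5 and Lamc1 joined the higher subunits.

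**Figure D1:**
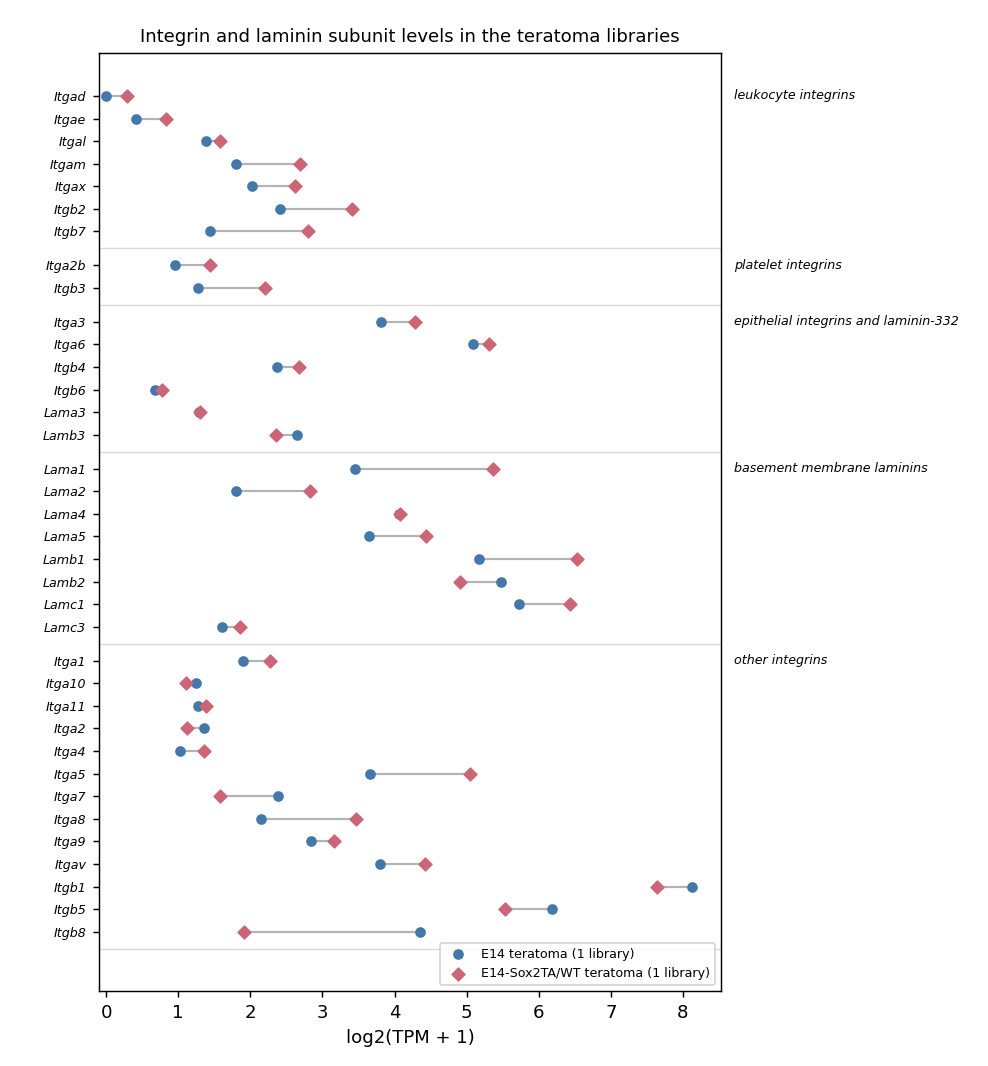
Level of each integrin and laminin gene reported here, as log2(TPM + 1) on the horizontal axis, in the E14 library (circles) and the TA/WT library (diamonds), by group. Each point is 1 library. Lama1 goes from 9.98 to 40.3 TPM, Itgb8 from 19.4 to 2.76 TPM, and Itgb1 is the most abundant subunit in both libraries.

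Since Sox2 is the edited factor, the 250 bases before a RefSeq transcript start of each subunit, from a table of GRCm38.p6, were searched for the core letters of SOX binding sites, ACAAAG or ACAATG, on both strands. The table held 23 of the 37 subunits. At least 1 match was found for 3 of these, Itga8, Itgb1 and Itga3, which is 13.0% of them, against 28.2% of all 27025 genes in the table. Transcript starts can lie inside the annotated gene, as does the matching window of Itga3, whose other window, at the outer start of the gene, held no match. A match is a description of the letters and does not show a binding site. The windows of the most strongly lower and of the only matching higher subunit by the rule above are shown, both on the minus strand and read 5′ to 3′ toward the gene start, with the matching letters in capitals.
Itgb8, chr12:119238277-119238526, no match: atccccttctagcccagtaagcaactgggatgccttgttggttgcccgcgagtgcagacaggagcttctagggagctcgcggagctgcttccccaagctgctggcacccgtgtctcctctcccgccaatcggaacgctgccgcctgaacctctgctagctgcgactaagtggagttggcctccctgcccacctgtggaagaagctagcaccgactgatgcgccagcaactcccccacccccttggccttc
Itga8, chr2:12301945-12302194, one match of ACAATG: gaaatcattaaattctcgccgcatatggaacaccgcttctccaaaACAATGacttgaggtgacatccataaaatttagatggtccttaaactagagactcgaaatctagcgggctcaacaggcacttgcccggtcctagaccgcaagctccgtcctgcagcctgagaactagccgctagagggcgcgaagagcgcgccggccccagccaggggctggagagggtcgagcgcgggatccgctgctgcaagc
The Itgb8 window ends beside the annotated end of the gene at 119238276, and held none of these letters on either strand. The window of Itga5 held none either, nor did that of Lamb1, which lies largely inside the gene.

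Of the basement membrane laminins, 7 of 8 had a higher TPM in the TA/WT library, beside 47.5% of all genes with at least 1 TPM. These 7 include Lama4, with a ratio of 1.01 and an interval that holds a ratio of 1. Lama1 encodes α1, the chain of the first laminins made in the embryo and of Reichert's membrane. Its TPM was 9.98 in the E14 library against 40.3 in the TA/WT library, from 2278 and 10266 reads, a 4.04-fold difference (interval 3.86 to 4.22). It lies on chromosome 17 of mm10, from 67697127 to 67822645. Lamb1, whose β1 chain pairs with α1 in these early laminins, had 35.1 and 91.3 TPM and was 2.60-fold higher (2.52 to 2.69). It lies on chromosome 12 from 31265146 to 31329644. Lamc1, the γ1 chain that most laminins share, had 51.8 and 85.6 TPM, which is 1.65-fold (1.61 to 1.69) and below the fold the rule asks for. All 3 chains of the α1β1γ1 laminin thus had higher levels in the TA/WT library, by unequal folds.

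The remaining basement membrane chains did not all differ in the same direction. Lama5, the α chain of most epithelial basement membranes of later tissues, had 11.5 and 20.7 TPM, a 1.80-fold difference (1.72 to 1.88) that passed 2 when FPKM or library-scaled counts were used. Lama2, the α chain around muscle fibres and peripheral nerves, had 2.49 and 6.09 TPM (2.44-fold, 2.22 to 2.69) and did not reach a TPM of 10. Lama4, the α chain of vessels, had 15.7 and 15.8 TPM, with an interval of the ratio from 0.951 to 1.07. Lamb2, the β chain of synaptic and kidney basement membranes, was the one chain with a lower level, 43.4 against 29.0 TPM, or 1.49-fold lower (1.44 to 1.55). Lamc3, a minor γ chain, had 2.06 and 2.61 TPM. The median log2 ratio of these 8 chains was 0.75, with values from -0.56 to 1.91, beside -0.06 over all genes.

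Shares within a library do not depend on the scaling between libraries, and they showed a changed order of the chains. In the E14 library, Lama4 held 38.2% of the summed TPM of the laminin α chains, Lama5 28.0% and Lama1 24.2% (interval 23.4% to 25.1%). In the TA/WT library, Lama1 came first with 47.7% (47.0% to 48.4%), ahead of Lama5 with 24.5% and Lama4 with 18.8%. The leading α chain thus differed between the libraries. Among the β chains, Lamb2 led with 51.8% in the E14 library, and Lamb1 led with 73.4% in the TA/WT library. The ratio of Lamb1 to Lamb2 was 0.809 (0.778 to 0.840) in the first and 3.15 (3.04 to 3.25) in the second. Summed over each class, TPM was 41.2 and 84.4 for the α chains and 83.7 and 124 for the β chains.

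**Figure D2:**
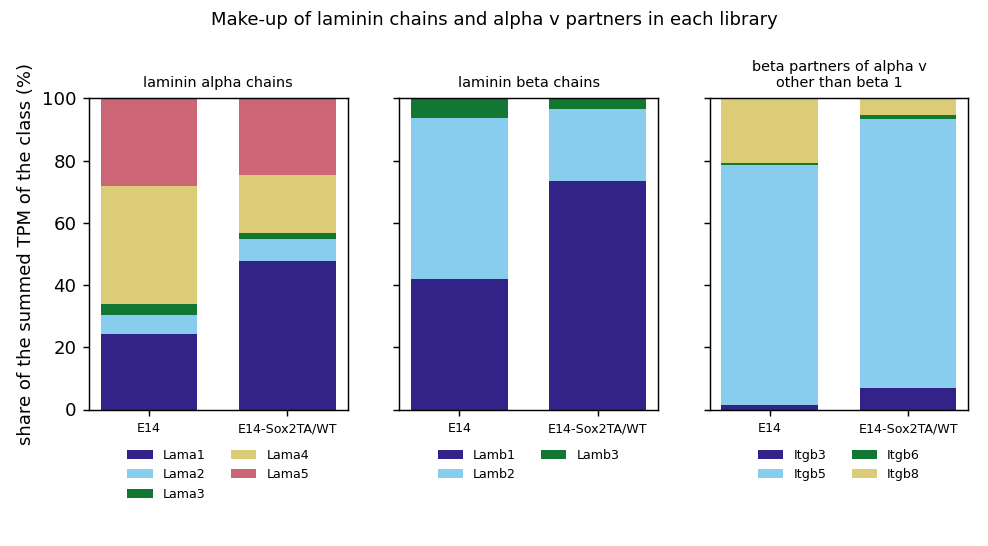
Share of each chain in the summed TPM of its class, in percent, for laminin α and β chains and for the β chains other than β1 that pair with integrin αv, in the E14 and the TA/WT library. Each bar is 1 library. Lama1 takes 24.2% and 47.7% of the α chains, Lamb1 41.9% and 73.4% of the β chains, and Itgb8 20.8% and 5.25% of the αv partners.

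Markers of visceral and parietal endoderm, tissues that lay down laminin with the α1 chain, differed in the same direction as Lama1 and Lamb1. All 8 were higher, and their summed TPM was 46.6 in the E14 library against 388 in the TA/WT library. Afp, a serum protein of visceral endoderm, had 0.614 and 151 TPM, Ttr, a thyroid hormone carrier, had 1.32 and 41.1, Apoa1, an apolipoprotein, had 2.45 and 61.1, and Foxa2, an endoderm transcription factor, had 35.3 and 57.2. Visceral and parietal endoderm were read as 1 list and were not told apart. Nor was the direction particular to this list. Markers of pluripotent cells, mesenchyme and epithelium were mostly higher too, with median log2 ratios of 3.78, 1.31 and 1.09. The part of any of these cells in the laminin difference was not tested.

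Of 20 basement membrane partners of laminin, 16 reached 10 TPM, and 4 of these were higher and 2 lower by the rule, beside 10.8% and 18.7% of all genes. Nid1, nidogen 1, which bridges laminin γ1 and type IV collagen, had 22.3 and 68.2 TPM and was 3.06-fold higher (2.95 to 3.19). Its ratio to Lamc1 was 0.430 in the E14 library against 0.798 in the TA/WT library. Nid2, the second nidogen, had 23.7 and 48.9 TPM. The nidogens therefore had higher levels together with Lama1 and Lamb1. Col15a1, a collagen of the basement membrane zone, had 5.05 and 13.5 TPM, and Smoc2, a secreted calcium-binding protein, had 7.35 and 16.2. Agrn, the heparan sulfate proteoglycan agrin, was lower, with 147 and 64.9 TPM. Dag1, the laminin receptor dystroglycan, was lower as well, with 93.9 and 46.7 TPM, a ratio of 0.498 that lies next to the limit of the rule. Col4a1, a main chain of type IV collagen, had 123 and 193 TPM, and Col18a1, a collagen with heparan sulfate chains, had 67.9 and 108. The type IV chains did not share 1 direction. Col4a2 had 89.4 and 101 TPM, while Col4a5 had 26.0 and 15.2 and Col4a6 had 11.3 and 6.35. Col4a3 and Col4a4 were higher but stayed below 1 TPM in both libraries. Hspg2, perlecan, had 16.1 and 18.2 TPM. Over the 20 partners, 11 had a higher and 9 a lower TPM. The median log2 ratio of this list was 0.07, and relative to genes of the same length it was 0.62.

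The epithelial integrins and the chains of laminin-332 had ratios from 0.780 to 1.41, and none passed the rule, although Itga3 and Itga6 alone reached 10 TPM and could have passed. Itga6 encodes α6, the laminin receptor chain that forms α6β4 in hemidesmosomes and α6β1 elsewhere. It had 33.0 and 38.7 TPM, a 1.17-fold difference (1.13 to 1.22). Itgb4, the β4 chain that links to keratins, had 4.15 and 5.37 TPM (1.29-fold, 1.17 to 1.44). This gene overlaps Galk1 in the annotation, and the strand used in counting is not given in the sources used here. Itga3, the other epithelial laminin receptor chain, had 13.1 and 18.5 TPM (1.41-fold, 1.33 to 1.51). Itgb6, an epithelial partner of αv that binds latent TGFβ, stayed below 1 TPM in both libraries, with 72 and 93 reads (ratio 1.18, 0.860 to 1.63). Each of these 4 integrin genes had a higher TPM in the TA/WT library, by 1.41-fold at most, but the interval of Itgb6 includes a ratio of 1.

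Chains of laminin-332, which anchors keratinocytes, did not share that direction. Lama3 had 1.44 and 1.46 TPM (ratio 1.01, 0.869 to 1.18). Lamb3 had 5.26 and 4.10 TPM and was 1.28-fold lower (1.13 to 1.46). Epithelial markers did differ, with 10 of 11 higher, beside 47.5% of all genes with at least 1 TPM. By the rule, 6 of the 10 that reached 10 TPM were higher, beside 10.8% of all genes. Krt5 and Krt14, the keratins of basal cells that hemidesmosomes bind, had 25.1 and 127 TPM and 8.09 and 58.9 TPM. Krt8, Krt18 and Krt19, keratins of simple epithelia, had 118 and 426, 78.8 and 315, and 112 and 241 TPM. Krt5, Krt8 and Krt18 lie on chromosome 15, whose genes had a median of 0.41 in log2 relative to all genes. The part of this shift in their levels was not tested. Trp63, the transcription factor that defines basal epithelium, had 6.96 and 6.43 TPM. The summed TPM of the 11 markers was 562 in the E14 library against 1550 in the TA/WT library, and their part in the levels of these subunits was not tested. The ratio of Lamb3 to Krt5 was 0.209 (0.189 to 0.232) in the E14 library against 0.0323 (0.0293 to 0.0355) in the other. The ratio of Itga6 to Krt5 was lower in the TA/WT library too, with 1.31 (1.24 to 1.40) and 0.304 (0.294 to 0.315). Relative to Epcam, a general epithelial adhesion molecule with 64.6 and 72.4 TPM, Itga6 had 0.511 (0.489 to 0.535) and 0.534 (0.514 to 0.556), which overlap, so these ratios depended on the marker chosen.

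Of 6 hemidesmosome partners, 5 reached 10 TPM, of which the keratins Krt5 and Krt14 were higher by the rule and Dst was lower, beside 10.8% and 18.7% of all genes. Dst encodes dystonin, a plakin that neurons and muscle also express, and had 34.1 and 14.7 TPM. Cd151, a tetraspanin bound to α3 and α6 integrins, had 94.0 and 89.1 TPM, and Col17a1, the transmembrane collagen of hemidesmosomes, had 4.94 and 5.04. Plec, the plakin that ties β4 to keratin, had 14.9 and 15.0 TPM, so the structural partners other than the keratins and Dst lay close together in both libraries.

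**Figure D3:**
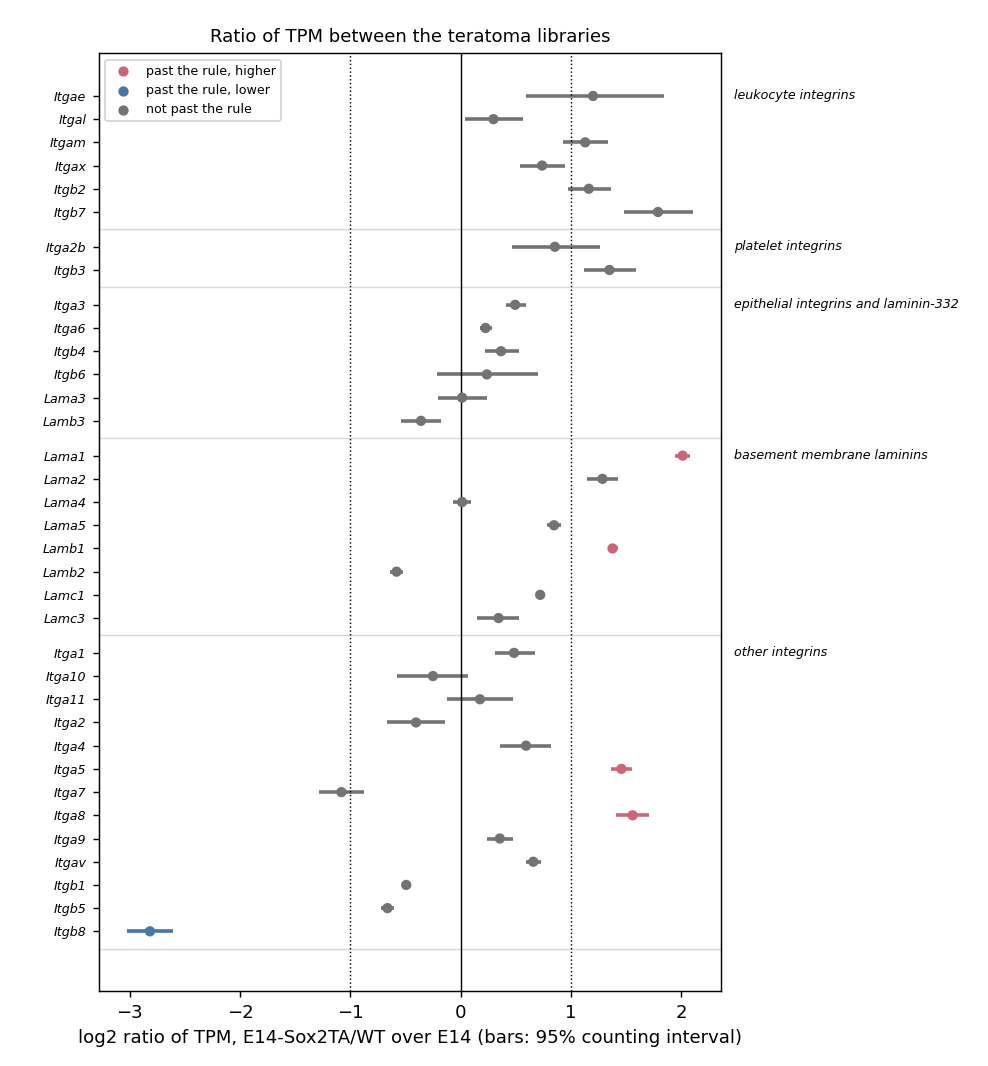
Ratio of TPM in the TA/WT library over the E14 library on a log2 axis for the subunits reported here with reads in both, by group. Points are ratios, bars are 95% counting intervals, dotted lines mark a ratio of 2 in either direction, and coloured points passed the rule (4 higher, 1 lower).

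All 7 leukocyte integrins had a higher TPM in the TA/WT library, beside 15701 higher and 13444 lower among all genes. None of the 7 reached 10 TPM, so none could be counted by the rule. Itgb2 encodes β2, the chain common to the leukocyte integrins LFA-1 and Mac-1. It had 4.32 and 9.68 TPM, from 297 and 746 reads, a 2.24-fold difference (1.96 to 2.57). Itgam, the αM chain of Mac-1 on macrophages and neutrophils, had 2.50 and 5.46 TPM (2.19-fold, 1.90 to 2.52). Itgax, the αX chain of dendritic cells and macrophages, had 3.07 and 5.14 TPM (1.67-fold, 1.45 to 1.93). Itgal, the αL chain of LFA-1, had 1.61 and 1.98 TPM (1.23-fold, 1.03 to 1.48), the smallest ratio of the group. Folds thus varied between the α partners of β2, and αM and αX were the most abundant in both libraries. Itgad, the αD chain, had 0 and 24 reads, at least 7.18-fold higher against a limit of 3 reads. Itgam, Itgax and Itgad are neighbouring genes of similar sequence on chromosome 7, so reads may be shared among them, and Itgad overlaps Cox6a2.

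Itgb7, the β7 chain of gut-homing lymphocytes and mast cells, had the largest ratio of the leukocyte integrins with reads in both libraries, 1.72 against 5.96 TPM or 3.46-fold (2.80 to 4.31). Genes on chromosome 15, where it lies, had a median of 0.41 in log2 relative to all genes, and the part of this shift in the difference was not tested. Itgae, the αE partner of β7 that binds E-cadherin, had 32 and 80 reads and stayed below 1 TPM, and it overlaps Haspin, which had 6.74 and 10.7 TPM. Over the 5 leukocyte integrins with at least 1 TPM, the median log2 ratio was 0.89, with a range from 0.19 to 1.35.

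Leukocyte markers were higher as well, in 15 of 15 genes, beside 15701 higher and 13444 lower among all genes. The median log2 ratio of the 11 markers with at least 1 TPM was 0.66, and the summed TPM of all 15 was 830 and 1490. Lyz2, lysozyme of macrophages and neutrophils, had 457 and 943 TPM, C1qa 150 and 215, and C1qb, like C1qa a complement chain made by macrophages, 121 and 155. S100a8, a neutrophil protein, had 2.23 and 8.72 TPM, and Cd14, a lipopolysaccharide receptor of monocytes, had 5.17 and 15.4. The macrophage markers Csf1r and Adgre1 differed less, with 21.3 and 26.7 TPM and 10.2 and 11.7 TPM. The defining markers of T cells, Cd3e, of natural killer cells, Ncr1, and of dendritic cell precursors, Flt3, were at 0 reads in the E14 library and below 1 TPM in the other. The most abundant leukocyte markers of both libraries were thus Lyz2, C1qa and C1qb, and the part of leukocytes in the integrin differences was not tested. Relative to Ptprc, the pan-leukocyte phosphatase CD45, Itgb2 had a ratio of 2.16 (1.83 to 2.56) in the E14 library against 1.97 (1.77 to 2.19) in the TA/WT library. Itgam had 1.25 (1.05 to 1.48) and 1.11 (0.999 to 1.24). Both pairs of intervals overlap. Relative to Laptm5, a lysosomal membrane protein of blood cells, Itgb2 had 0.278 (0.243 to 0.318) and 0.389 (0.356 to 0.424), which do not overlap, so the outcome depended on the marker chosen. For Itgal, relative to Ptprc, the ratio was 0.806 (0.668 to 0.971) and 0.404 (0.350 to 0.464), and for Itgax 1.54 (1.30 to 1.82) and 1.05 (0.934 to 1.17), both lower in the TA/WT library. Itgb7 went the other way, with 0.863 (0.685 to 1.08) and 1.21 (1.07 to 1.37), and these intervals overlap at their ends.

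The platelet integrin αIIbβ3 had low levels. Itga2b, the αIIb chain of megakaryocytes and platelets, had 0.946 and 1.71 TPM (1.81-fold, 1.38 to 2.41) and passed 1 TPM only in the TA/WT library. Itgb3, the β3 chain, which also pairs with αv on osteoclasts and vessels, had 1.42 and 3.62 TPM (2.55-fold, 2.17 to 3.02). Of 6 platelet markers, Pf4, a granule chemokine also found in macrophages, had 11.7 and 40.5 TPM, and Ppbp, another granule chemokine, had 0.0767 and 5.31. Gp1bb, a chain of the von Willebrand factor receptor, had 6.41 and 3.93 TPM. Gp9, a further chain of that receptor, had 0 reads in both libraries and Gp1ba had 3 and 0, so these defining receptor chains were at or near 0 where both integrin genes had reads.

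The other integrins split into higher and lower genes, 7 and 6 of 13, with a median log2 ratio of 0.11. Among the 36 subunits with reads in both libraries, the largest fold was that of Itgb8, the β8 chain, which with αv activates latent TGFβ and is known from neural progenitors and glia. Itgb8 had 19.4 TPM in the E14 library against 2.76 in the TA/WT library, from 1445 and 230 reads, and was 7.03-fold lower (6.12 to 8.12). It lies on chromosome 12 of mm10 from 119162803 to 119238276. Itgav, its α partner, went the other way, with 12.9 and 20.5 TPM (1.58-fold higher, 1.51 to 1.66). The ratio of Itgb8 to Itgav was therefore 1.5 (1.40 to 1.60) in the E14 library against 0.135 (0.117 to 0.154) in the other. Of the summed TPM of the αv partners β3, β5, β6 and β8, Itgb8 held 20.8% (19.9% to 21.8%) and 5.25% (4.63% to 5.95%). Itgb5, the β5 chain of the vitronectin receptor, held 77.0% and 86.5% while its own TPM was 71.8 and 45.4, or 1.58-fold lower (1.52 to 1.65).

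Neural markers were lower as well, and their part in the difference of Itgb8 was not tested. Their summed TPM was 2820 in the E14 library against 403 in the TA/WT library. Tubb3, a tubulin of neurons, had 1720 and 170 TPM, Gap43, a growth cone protein, had 474 and 106, and Mapt, the axonal protein tau, had 265 and 18.2. Nes, the intermediate filament nestin of neural progenitors, had 83.8 and 51.8. The ratio of Itgb8 to Nes was 0.231 (0.219 to 0.244) and 0.0532 (0.0465 to 0.0606), lower in the TA/WT library, whereas its ratio to Tubb3 was 0.0113 (0.0107 to 0.0119) and 0.0162 (0.0141 to 0.0185), higher there. Itgb8 was thus lower by less than Mapt (14.6-fold) and Tubb3 (10.1-fold). It was lower by more than Elavl3 (5.66-fold), Sox1 (5.06-fold), Map2 (4.66-fold), Gap43 (4.47-fold), Pax6 (3.71-fold) and Nes (1.62-fold). Tubb3 and Sox1 lie on chromosome 8, whose genes had a median of -0.43 in log2 relative to all genes. The part of this shift in their levels was not tested.

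Among the RGD receptors, which bind fibronectin and related ligands, Itga5 and Itga8 were higher by the rule. Itga5, the α5 chain of the main fibronectin receptor, had 11.6 and 31.9 TPM, from 1233 and 3784 reads (2.75-fold, 2.58 to 2.93). It lies on chromosome 15 from 103344286 to 103366791, on the same chromosome as Itgb7, whose median shift of 0.41 is given above. Itga8, the α8 chain of mesenchyme and smooth muscle that binds nephronectin, had 3.42 and 10.1 TPM (2.95-fold, 2.66 to 3.28), just past the level of 10 in the TA/WT library. The gene lies on chromosome 2 from 12106632 to 12301985. Mesenchyme markers were higher in 7 of 7 genes, with a summed TPM of 542 and 1240, and their part in these differences was not tested.

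Itgb1 encodes β1, the partner of 12 α chains measured here and the most abundant subunit of both libraries. It had 278 and 198 TPM, from 28074 and 22276 reads, and was 1.41-fold lower in the TA/WT library (1.38 to 1.43). Genes on chromosome 8, where it lies, had a median of -0.43 in log2 relative to all genes, the same value as Itgb1 itself, and the part of this shift was not tested. Its share of all β integrin TPM was 72.9% (72.4% to 73.4%) in both libraries. The α partners of β1 summed to 92.7 and 139 TPM, so that their sum was higher where the β chain was lower. Within that sum, Itga5 held 12.5% (11.9% to 13.2%) and 23.0% (22.4% to 23.6%), Itga8 held 3.69% and 7.25%, and Itga6 stayed first with 35.7% and 27.8%. The ratio of Itga5 to Itgb1 was 0.0417 (0.0394 to 0.0442) in the E14 library against 0.162 (0.156 to 0.167) in the TA/WT library.

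The collagen receptors stayed low in both libraries. Itga1, the α1 chain of smooth muscle and mesenchyme, had 2.74 and 3.84 TPM (1.40-fold, 1.24 to 1.60), and it overlaps Pelo, which had 24.6 and 27.0 TPM. Itga11, a chain of fibroblasts, had 1.43 and 1.62 TPM (1.13-fold, 0.921 to 1.39). Itga2, the α2 chain of epithelia and platelets, had 1.56 and 1.18 TPM (1.32-fold lower, 1.10 to 1.59), and Itga10, the α chain of chondrocytes, had 1.38 and 1.16 (1.19-fold lower, 0.95 to 1.49). Both of the latter were higher, not lower, relative to genes of the same length. The intervals of Itga10 and Itga11 include a ratio of 1, so neither difference was detectable at this depth.

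Itga7, the laminin receptor chain of skeletal muscle, had 4.23 and 2.0 TPM, 2.11-fold lower (1.83 to 2.44), and did not reach the level of the rule. Its read counts, 435 and 347, scaled by library total, gave 1.22-fold lower, and the transcript length implied by the deposited values was 4739 nt in the E14 library and 7173 nt in the TA/WT library. Skeletal muscle markers were lower in 6 of 7 genes, with a summed TPM of 174 and 82.1. Among them, Myh3, embryonic myosin, had 24.7 and 5.34 TPM, and their part in the level of Itga7 was not tested. Lama2, the chain around muscle fibres and peripheral nerves, went the other way, with 2.49 and 6.09 TPM. Itga4, the α4 chain of leukocytes and neural crest that binds VCAM-1, had 1.03 and 1.56 TPM (1.51-fold, 1.28 to 1.77). The gene overlaps Cerkl, which had 0.448 and 0.654 TPM, and Itga7 overlaps Mettl7b, which had 0 and 10 reads. Itga9, a related chain that binds tenascin C, had 6.18 and 7.92 TPM (1.28-fold, 1.18 to 1.39).

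Of 20 integrin ligands, 14 reached 10 TPM, and 4 of these were higher and 1 lower by the rule, beside 10.8% and 18.7% of all genes. The median log2 ratio of the list was 0.86. Spp1, osteopontin, an RGD ligand of αvβ3 and α5β1, had 36.7 and 340 TPM and was 9.25-fold higher (8.73 to 9.81). Ibsp, bone sialoprotein, an RGD protein of mineralised tissue, had 0.659 and 12.2 TPM (18.5-fold, 12.9 to 27.5). Fn1, fibronectin, the ligand of α5β1, had 47.4 and 115 TPM (2.43-fold, 2.37 to 2.49). Fibronectin and its receptor chain Itga5 were thus both higher, by 2.43-fold and 2.75-fold. Not every such pair shared a direction. Npnt, the nephronectin bound by α8, had 16.3 and 13.4 TPM (ratio 0.820), although Itga8 was higher. Tnc, the tenascin C bound by α9, had 67.6 and 45.4 TPM (ratio 0.672), although Itga9 was higher. Icam1, the ligand of the β2 integrins, had 4.03 and 13.8 TPM (3.43-fold, 2.98 to 3.96). Vcam1, the ligand of α4 integrins, had 70.6 and 15.0 TPM and was the single ligand lower by the rule. Postn, periostin of connective tissue, had 91.5 and 175 TPM, below the fold of the rule, and Mfge8, an RGD protein that marks dying cells for uptake, had 202 and 116. The fibrinogen genes Fgb and Fgg, ligands of αIIbβ3 and Mac-1 made by liver and visceral endoderm, had 0.600 and 7.66 and 0.149 and 4.03 TPM, and Fga had 0 reads in the E14 library against 137 in the other.

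The 24 integrin activators and adhesion adaptors, which act inside the cell, gave 0 higher and 3 lower genes by the rule among the 16 that reached 10 TPM, beside 10.8% and 18.7% of all genes, so the lower share was near that of all genes. Their median log2 ratio was 0.10. The 3 lower genes were Fyn, a Src family kinase with 94.8 and 29.0 TPM, Bcar1, the scaffold p130Cas with 66.0 and 25.1, and Src, the kinase itself, with 53.9 and 25.3. Ilk, the linked kinase that binds β1 tails, had 156 and 99.0 TPM. The talin Tln1, with 25.9 and 27.7 TPM, and the kindlin Fermt2, with 59.1 and 58.9, both general activators of integrins, had nearly equal levels, whereas the kindlin of blood cells, Fermt3, had 3.55 and 5.47.

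**Figure D4:**
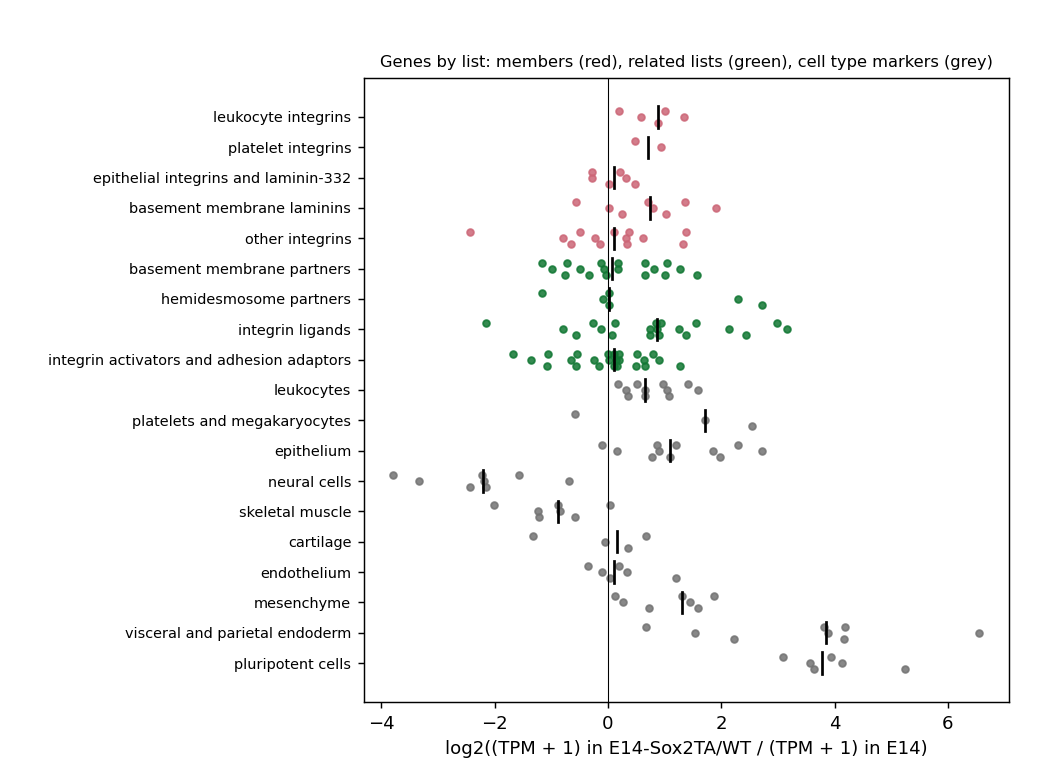
Log2 ratio of TPM with 1 added to each value, E14-Sox2TA/WT over E14, for each gene with a TPM of at least 1 in a library. Rows are the 5 groups of integrins and laminins (red), the 4 related lists (green) and the 10 marker lists (grey), and black ticks are medians, for example 0.89 for leukocyte integrins, 0.66 for leukocyte markers and -2.20 for neural markers.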

How the data were processed

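PolyA RNA was sequenced by the authors, who deposited per gene whole read counts without normalization, FPKM and TPM for 2 libraries of 45777 genes on mm10. The deposited counts, FPKM and TPM come from tools that the submitters' processing notes list as bcl2fastq 2.20.0, Trimmomatic, HISAT2 2.1.0 and StringTie 2.1.3b, while the strand setting of counting is not given in the sources used here. NCBI identifiers matched a RefSeq table of GRCm38.p6 for 45679 genes, which gave the positions.

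Ratios of TPM were taken between the libraries. The rule of the methods asks for a ratio above 2 and, in either library, 10 TPM or more. Group medians used log2 of TPM with 1 added, over genes that reached 1 TPM in either library. Exact Clopper-Pearson intervals at 95% were taken from read counts, the limit for a count of 0 was set to 3 reads, and both cover counting error only. Every integrin and laminin gene is named but 1, which is counted but not reported here, and from each related or marker list the 3 highest genes and the 2 with the largest log2 ratio, with others named after their values were seen. The genes and lists were chosen with earlier results of these data known. Relative to same length means against the median of 20 length bins. Alternatives covered the fold, filter, pseudocount, FPKM, length and count scaling (library total, TMM, median of ratios). Scripts were tested on simulated data. Software was edgeR 4.0.16 for TMM factors alone, R 4.3.3, scipy 1.17.1, pandas 2.3.3, numpy 2.4.6 and Python 3.11.15.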

Additional observations from a re-analysis of the deposited data

How the results depend on the processing

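Of the integrins and laminins, 4 higher and 1 lower passed the rule. The higher count was 7 of 14 at a fold of 1.5, 1 of 14 at a fold of 3 and 7 of 14 relative to genes of the same length. It was 9 of 34 with a TPM of at least 1 and 11 of 37 without a filter. The shares of all genes under each setting are given above. The lower count was 2 of 14 at a fold of 1.5, 2 of 34 from 1 TPM up and 2 of 37 without a filter. For the related lists, whose alternatives were chosen after seeing the data, 10 higher genes of 51 became 19 at a fold of 1.5 (18.2% of all genes), 6 at a fold of 3 (5.73%), 17 of 68 from 1 TPM up (19.3%), 19 of 70 without a filter (31.4%), 16 with FPKM (13.7%) and 16 with library totals (13.6%). Their 7 lower genes became 11 at a fold of 1.5 (32.3%), 2 at a fold of 3 (8.77%), 4 with FPKM (14.3%), 3 with library totals (14.1%) and 3 relative to genes of the same length (15.6%). The group medians kept their sign in all alternatives run. Relative to genes of the same length, the median was 0.72 for all subunits, 0.97 for platelet integrins and 0.59 for the epithelial group, and with a pseudocount of 0.1 it was 1.04 for platelet integrins. The cause of these shifts was not tested. Of the 36 subunits with reads in both libraries, 33 kept their direction under every scaling, and Itga10 and Itga2 were among those that did not relative to genes of the same length. Shares of FPKM, chosen after seeing the data, equal the shares of TPM by construction, so they are no check on the shares.

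No paired analysis was possible because each group has 1 library, which also leaves no replicate to omit. Depth limits the low leukocyte and platelet genes, whereas for subunits with over 2000 reads in both libraries the interval reached at most 5.84% from the ratio. No interval covers differences between tumours, clones or pieces of tissue.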

Other observations

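Further marker lists set the cells around these subunits. Endothelial markers had a median log2 ratio of 0.11, and none of the 3 that reached 10 TPM passed the rule. Pecam1, an adhesion molecule of endothelium, had 27.6 and 31.6 TPM in the E14 and the E14-Sox2TA/WT library, Emcn, endomucin, had 22.6 and 23.2, Cdh5, the endothelial cadherin, had 21.1 and 19.5, and Kdr, a VEGF receptor, had 7.98 and 6.01. Tek, the angiopoietin receptor, had 2.21 and 6.44 TPM, which is 2.92-fold higher (2.53 to 3.37) but below the level of the rule.

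Mesenchymal collagens were higher in the E14-Sox2TA/WT library, with 172 and 472 TPM for Col3a1 and 49.9 and 152 for Col1a1. Lum, the proteoglycan lumican, had 49.5 and 184 TPM, and Dcn, decorin, had 232 and 382. Cartilage markers were mixed, with 4 of 6 higher and 2 lower, and a median log2 ratio of 0.15 over the 4 that reached 1 TPM. The 2 below that level were both higher, Comp with 0.159 and 0.742 TPM and Matn1 with 0 and 46 reads. Col2a1, the collagen of cartilage, had 58.0 and 74.8 TPM, Col9a1, which coats its fibrils, had 14.3 and 13.7, Sox9, the chondrocyte transcription factor, had 44.1 and 16.9, and Acan, aggrecan, had 0.252 and 1.01. The pluripotency genes Pou5f1 and Nanog had 19.0 and 304 TPM and 8.37 and 116 TPM, Dppa5a had 29.1 and 1140, and Zfp42 had 3.88 and 85.2.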
